A study of Homo sapiens with 18 samples.

Results

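Isolated gene ends are last exons with no other protein-coding gene close behind them. Of the 13051 transcripts in the table of readthrough counts, 2177 (16.7%) met that description. No other protein-coding gene of GENCODE 44 lay on either strand between 100 nt and 50 kb past their last exon. The remaining transcripts were 9610 with a protein-coding neighbour in that window, 917 left out by symbol (ribosomal protein, zinc finger, solute carrier, histone and mitochondrial families) and 347 that could not be matched to the annotation. Of those left out by symbol, 162 had no neighbour in the window.

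When RNA polymerase II reaches the end of a gene, the cleavage and polyadenylation complex reads a hexamer, most often AATAAA, cuts the nascent RNA downstream of it and lets the polymerase be released. Polymerase that goes on without cleavage gives readthrough RNA. Where a neighbour is close, that RNA can enter or face another gene, whereas an isolated end opens into intergenic sequence.

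The study asked how stress and imatinib alter readthrough in K562, a chronic myeloid leukemia (CML) line that carries the Bcr-Abl1 kinase. Nascent RNA was taken from chromatin, depleted of poly(A) RNA and rRNA, and sequenced as PacBio long reads whose 3′ end marks the polymerase. The 18 libraries form 6 conditions of 3 biological replicates: CTRL (untreated), JTE 1h (5 µM JTE-607, an inhibitor of the CPSF73 endonuclease, 1 h), KCl 45min (hyperosmotic shock with 110 mM KCl, 45 min), CTRLim (untreated, collected for the imatinib set), IM 1h and IM 18h (1 µM imatinib, an inhibitor of Bcr-Abl1, for 1 h or 18 h). All conditions share the same line, so no value here speaks of other cells.

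The sequences at the end of the exon are shown because they are what the cleavage complex meets there. They are the last 30 bases of the last exon (GRCh38, GENCODE 44, transcript strand, 5′ to 3′) of 8 of the most-read isolated ends. Capitals mark AATAAA or ATTAAA.
HSPA8, chr11:123057489-123057518, minus strand: ataaaactatttaaaattggcaccatacaa
CHD2, chr15:92949201-92949230, plus strand: gcatattacagaAATAAAagatgattgaga
HMGN2, chr1:26476613-26476642, plus strand: tggacaggAATAAAgtaaattggagactaa
HNRNPC, chr14:21209136-21209165, minus strand: atacctgataaaatgtaaatggtatgtaaa
ZWINT, chr10:56357227-56357256, minus strand: ggtgagtgaattatcttttttactgataaa
CDK1, chr10:60794823-60794852, plus strand: gctttgggaATTAAActgtttaacaaataa
INSIG1, chr7:155310206-155310235, plus strand: tttttacttttATTAAAggttcaaaaccaa
TRMT11, chr6:126039247-126039276, plus strand: actAATAAAccatattgagaatttctaaaa

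Among all 2177 isolated ends, 1687 (77.5%) held AATAAA or ATTAAA on the transcript strand in the last 40 bases of the exon, against 72.1% of the ends with a neighbour. AATAAA was present in 62.4% of the isolated ends and ATTAAA without it in another 15.1%. HSPA8 and HNRNPC, which show no capitals above, held one of the hexamers within those 40 bases, and ZWINT did not. The 100 bases past the exon had a median GC content of 37% at isolated ends and 44% at ends with a neighbour. TGT lay within the first 30 of them at 70.7% and 67.0%, respectively.

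A second group of sequences shows the first 30 bases past the exon, which a readthrough read crosses, at ends called with imatinib. It was chosen after the values were seen. Capitals mark TGT.
GYPB, chr4:143996074-143996103, minus strand: ttcaTGTattatagtcatgattTGTtattt
GYPE, chr4:143870834-143870863, minus strand: cagtcttgggcagttttttataacagcatg
AHSP, chr16:31528804-31528833, plus strand: cttcctggcttctctttcatggtcTGTcct
BPGM, chr7:134679814-134679843, plus strand: aaagTGTctccgTGTGTttggtgaatttta
DDIT4, chr10:72276037-72276066, plus strand: gttggttgagtctctcatcagtaccatgaa
TMSB4X, chrX:12977228-12977257, plus strand: gctggTGTGTcTGTttggtttctggaagga
VIM, chr10:17237594-17237623, plus strand: tttTGTTGTGTtatttattggataatatct

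GYPB and GYPE are near-identical paralogs along much of their length, so reads could be placed on the wrong one. Compared base by base without gaps, the 30 bases shown for GYPB and GYPE share 6. Each piece starts at its own annotated exon end and the paralogs were not aligned. The count thus cannot show whether their sequences differ there or whether reads were placed on the right one. Strand use in the authors' counting is not given in the sources used here, and a gene on the opposite strand lies over the start of the counted region at 229 isolated ends, those of GYPB and GYPE included. Reads of such partners that overlap the last exon cannot be told apart from readthrough without strand.

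Isolated ends belonged to longer genes. Their transcripts spanned a median of 38.0 kb (quartiles 13.4 and 98.3 kb) and ended in a last exon of 1923 nt, against 21.3 kb and a last exon of 1231 nt (1230.5) at ends with a neighbour. The median exon number was 8 in both. The nearest protein-coding gene beyond an isolated end was a median of 124 kb away (quartiles 72.7 and 293 kb), and for 147 ends it was over 1 Mb away. It lay on the same strand for 1291 and on the opposite strand for 870. Gene-poor chromosomes were rich in isolated ends: 75 of the 196 transcripts on chromosome 13 (38.3%) and 60 of 160 on chromosome 18 (37.5%) qualified, and 19 of 999 (1.90%) on gene-rich chromosome 19.

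Empty of protein-coding genes did not mean empty of genes. A long noncoding RNA gene on the same strand lay in the window of 671 isolated ends (30.8%), and 656 (30.1%) had no gene of any type there. In addition, 169 of the annotated transcripts (7.76%) stopped more than 100 nt short of their own gene's end, and these held 7414 of the 67401 reads at isolated ends (11.0%). A read counted past such a transcript can lie inside the gene. CHD2 stops 78766 nt short, TRMT11 164541 nt and RRM2 80311 nt.

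Transcripts of 6 gene lists were isolated to very different degrees. Transcription factors of blood and development were isolated in 36 of 66 cases (54.5%), and response genes of BCR-ABL, STAT5 and ERK in 20 of 46 (43.5%). Stress genes reached 10 of 41 (24.4%), erythroid and haem genes 10 of 44 (22.7%) and cell cycle and death genes 12 of 64 (18.8%). Genes of 3′ end processing and termination were isolated in 6 of 54 cases (11.1%). The share in the whole table was 16.7%.

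Readthrough reads per library lay between 8422 and 57982 over all transcripts, and intervals given below cover counting error only. Of 14 listed markers of K562, 13 were in the table and all 13 had reads, with a summed level of 80.5 to 1286 reads per 1000000 library reads (RPM) over the libraries. Of their 7966 reads, HBG1 held 4159 and HBE1 2768, while BCR held 11 and HBZ 1. The table held 3 of 6 T cell, 2 of 5 B cell, 2 of 4 monocyte and 2 of 5 fibroblast markers. These gave 14, 2, 1 and 1 reads in all, with CD3G, ITGAM and COL1A2 at 0. Of the epithelial markers, KRT19 gave 63 reads. CTRL replicates 1 and 2, JTE 1h replicate 1 and KCl 45min replicate 1 have a median read length under 1500 nt in the study's supplement, and the other libraries of these conditions lie above it. No read length was used for CTRLim. Readthrough reads measure how often a gene is transcribed together with how often its end is not cleaved, and these cannot be told apart here. Nor can fewer cells with a transcript be told apart from less transcript per cell.

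Isolated ends held 67401 of the 447434 readthrough reads (15.1%), close to their 16.7% share of the transcripts. Their median was 12 reads over the 18 libraries, against 10 for ends with a neighbour. No read was counted at 221 of them, and 658 had at least 30 reads. The number of isolated ends with a read was 639 ± 17.6 (SD, n = 3) in CTRL and 1263 ± 68.9 in IM 18h, the most deeply sequenced condition.

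As a percentage of library reads, isolated ends took 0.353, 0.367 and 0.477 in CTRL, a mean of 0.399 ± 0.0676 (SD, n = 3). JTE 1h gave 0.358, 0.757 and 0.710, a mean of 0.608 ± 0.218. KCl 45min gave 0.314, 0.444 and 0.362, a mean of 0.373 ± 0.0654. Replicate 1 of JTE 1h sat with the controls, while its other replicates lay above every CTRL library.

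In the imatinib set, CTRLim gave 0.664, 0.560 and 0.569, a mean of 0.598 ± 0.0576. IM 1h gave 0.666, 0.672 and 0.695, a mean of 0.677 ± 0.0154, so that every IM 1h library lay above every CTRLim library, the nearest pair by a small margin. IM 18h gave 0.663, 0.601 and 0.595, a mean of 0.620 ± 0.0374, which overlapped CTRLim. These sums are a description and were not tested.

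**Figure D1:**
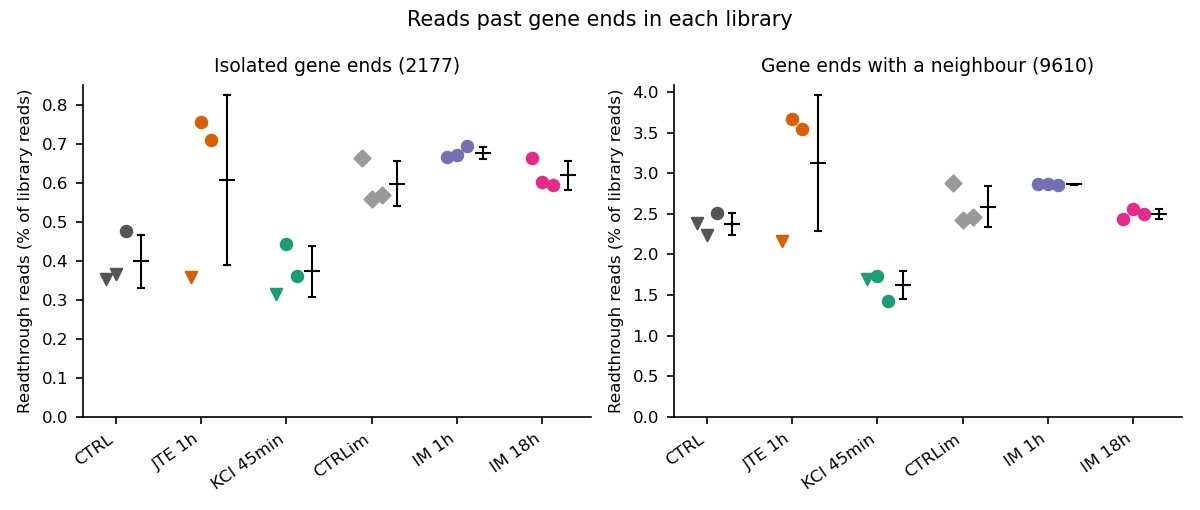
Readthrough reads as a percentage of library reads, for the 2177 isolated ends (left) and the 9610 ends with a neighbour (right). Each point is a library (triangles, median read under 1500 nt, circles above it, diamonds no read length used), and bars are the mean and SD of 3 replicates; JTE 1h spreads most, from 0.358 to 0.757 at isolated ends.

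With JTE-607 the mean at isolated ends was 52.4% above CTRL, and at ends with a neighbour 31.6% above. Within libraries of long reads, the difference was 0.257 percentage points at isolated ends (JTE 1h replicates 2 and 3 against CTRL replicate 3). In the libraries of short reads, it was -0.00252 points (JTE 1h replicate 1 against CTRL replicates 1 and 2). The difference moves with read length class, whose part in it was not tested.

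With KCl the mean at isolated ends differed from CTRL by -6.46% and that at ends with a neighbour by -31.9%. The first of these, -0.0258 percentage points, turned to 0.0130 without CTRL replicate 3 and to 0.00381 without KCl 45min replicate 1. Isolated ends made up 15.4% ± 2.26 of the readthrough reads, against 11.7% ± 1.52 in CTRL (SD, n = 3). Within read length classes, the differences at isolated ends were -0.0739 points (long) and -0.0462 points (short). Imatinib for 1 h gave 13.4% more at isolated ends and 10.6% more at ends with a neighbour, relative to CTRLim. At 18 h the values were 3.67% and -3.51%. The first, 0.0220 points, lay between 0.000437 (without IM 18h replicate 1) and 0.0551 (without CTRLim replicate 1).

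Single ends were tested with edgeR's quasi-likelihood test on 6 libraries, for transcripts with at least 30 reads over them. An end was called at a Benjamini-Hochberg adjusted p under 0.05 over all transcripts tested.

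**Figure D2:**
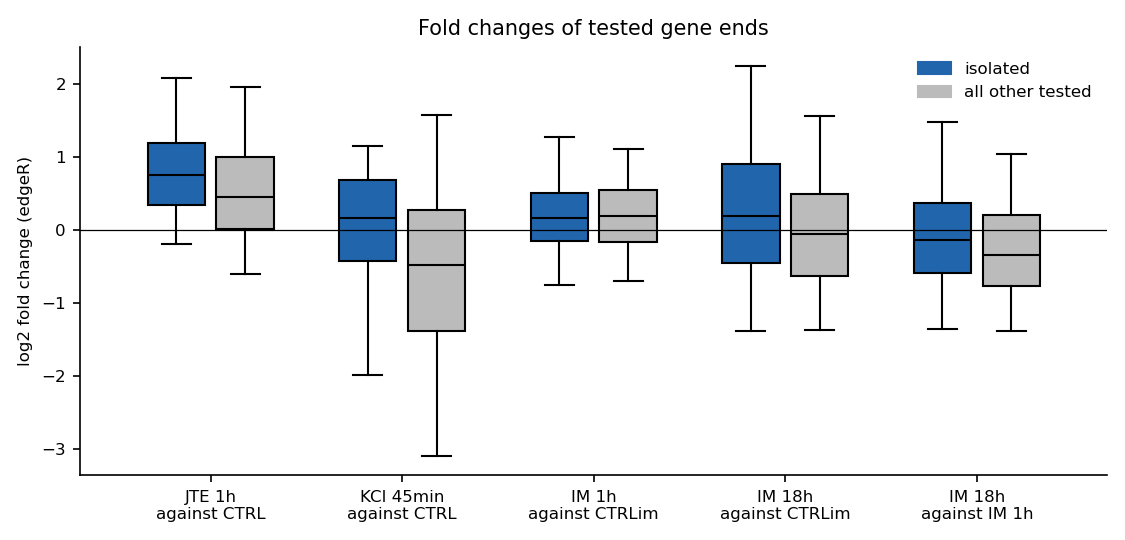
Fold changes on the log2 scale (edgeR) of isolated ends (blue) and all other tested ends (grey) in the 5 comparisons. Boxes are quartiles with the median, whiskers the 5th and 95th percentiles of transcripts, which are not replicates; for JTE 1h the isolated ends have a median of 0.75.

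The most-read isolated end belongs to HSPA8, the constitutive HSC70 chaperone. It gave 85.9, 85.3 and 73.5 RPM in CTRL, 41.3, 72.0 and 46.2 in JTE 1h, and 105, 79.7 and 55.9 in KCl 45min. In the imatinib set it gave 117, 120 and 142 RPM in CTRLim, 108, 133 and 118 in IM 1h, and 62.8, 65.0 and 61.5 in IM 18h. The IM 18h libraries lie far below both other imatinib conditions and close to one another.

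HMGN2, a nucleosome-binding protein, and HNRNPC, which binds nascent RNA, came next among ends that reach the end of their gene. HNRNPC is just inside the 50 kb limit, with OR5AU1 50.1 kb away, and HMGN2 has RPS6KA1 at 53.1 kb. HNRNPC gave 19.8 ± 3.29 RPM (SD, n = 3) in CTRL, 42.8 ± 12.6 in JTE 1h and 38.5 ± 16.5 in KCl 45min. All 3 libraries of either treatment lay above the 3 of CTRL, yet neither difference passed (edgeR adjusted p = 0.452 and 0.238). In the imatinib set its means were 61.3 ± 5.08, 81.1 ± 17.7 and 58.0 ± 14.3 RPM.

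ZWINT, a kinetochore protein, CDK1, the mitotic kinase, INSIG1, which holds back cholesterol synthesis, and MYLIP, a ubiquitin ligase for lipoprotein receptors, complete the ends that reach their gene's end together with MYC. CDK1 gave 78.3, 31.5 and 58.9 RPM in CTRLim and 66.9, 61.1 and 57.3 in IM 1h. In IM 18h it gave 51.1, 39.1 and 45.9, all within the span of CTRLim. INSIG1 reached 57.6 ± 8.15 RPM in IM 18h and 45.4 ± 9.0 in CTRLim, and MYLIP 44.7 ± 9.72 and 30.3 ± 3.88, without passing the test (adjusted p = 0.386 and 0.223). The means of ZWINT in the imatinib set were 52.9 ± 14.6, 54.8 ± 7.73 and 49.2 ± 12.7 RPM.

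CHD2, TRMT11, RRM2 and C8orf33 complete the 12 ends with the most reads, and all 4 stop short of their gene's end. CHD2, a chromatin remodeller, gave 48.0 ± 7.99 RPM in CTRLim, 47.2 ± 1.27 in IM 1h and 56.5 ± 4.90 in IM 18h. RRM2, a subunit of ribonucleotide reductase, gave 44.9 ± 14.1 in CTRL and 29.7 ± 8.49 in KCl 45min.

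**Figure D3:**
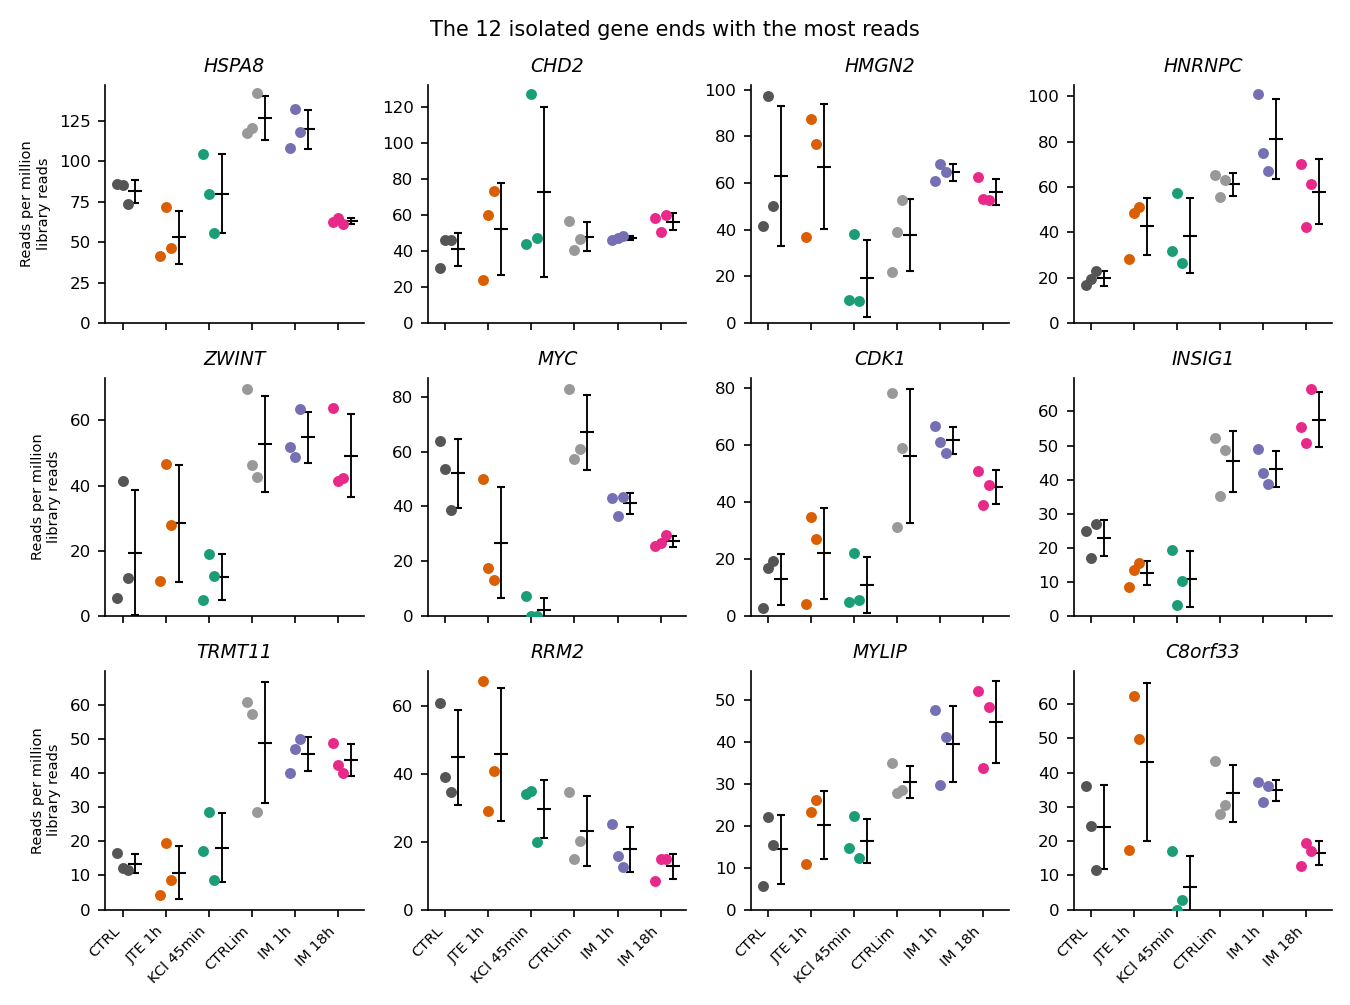
Reads per 1000000 library reads at the 12 most-read isolated ends in the 6 conditions. Points are libraries and bars the mean and SD of 3 (clipped at 0); HSPA8 falls to 61.5 to 65.0 in IM 18h, and MYC is at 0 in 2 KCl libraries.

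JTE-607 asks which ends depend on the CPSF73 nuclease. Of 135 isolated ends tested, 120 (88.9%) had a fold change above 0, against 77.6% of all 969 tested, with medians of 0.75 and 0.49 on the log2 scale. Under TMM scaling those medians were 0.24 and 0.03. Of the 135, 35 had at most 3 reads in every CTRL library, and 0 had so few in every JTE library. The filter sums reads over both groups, and the JTE libraries held more reads together. The shares above 0 thus depend on which ends could pass it. GNAS, TMEM18 and SEC61G, described below, passed through JTE 1h, with 49, 31 and 36 reads there. No isolated end was called, with 0.103% called over all tested. At an unadjusted p under 0.05 there were 17 isolated ends of 108 in all, and DESeq2 called 0. In 19 isolated ends every JTE library lay above every CTRL library, and in 2 below, against 12% and 1.86% of all tested.

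The smallest p belonged to GNAS, the stimulatory G protein subunit. Its CTRL libraries held 5.54, 0 and 0 RPM and its JTE libraries 15.2, 27.2 and 24.4, with no overlap. Over pooled reads the ratio was 11.9 (95% counting interval 3.12 to 101) from 2 CTRL reads (edgeR adjusted p = 0.226). TMEM18, a nuclear membrane protein, held 0, 0 and 3.87 RPM in CTRL and 6.53, 17.5 and 16.6 in JTE 1h, a ratio of 15 (2.51 to 613) from 1 CTRL read (adjusted p = 0.226).

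DDIT4, the stress-induced inhibitor of mTORC1, held 5.54, 2.44 and 11.6 RPM in CTRL and 0, 19.4 and 88.0 in JTE 1h. HMGB3, a chromatin protein, held 11.1, 9.75 and 3.87 and then 6.53, 64.2 and 38.3. In both, JTE replicate 1 sat with or below the controls (adjusted p = 0.226 each). SEC61G, of the translocation channel, held 2.77, 0 and 3.87 RPM in CTRL and 19.6, 5.83 and 20.9 in JTE 1h (adjusted p = 0.256).

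Without JTE 1h replicate 1, 10 of 112 isolated ends were called, 9 higher and 1 lower. Over all 840 transcripts tested in that fit, 8.21% were called, 7.98% higher and 0.238% lower. HMGB3 rose by 2.49 on the log2 scale (adjusted p = 0.0155), DDIT4 by 3.22 (0.0157) and GNAS by 3.57 (0.0185). RSL24D1, CCDC71L, MYL12B, CBX3, CHCHD3 and RPF2 rose between 1.74 (MYL12B) and 2.73 (CHCHD3). MYC fell by 1.82 (adjusted p = 0.0289). These ends were chosen after their values were seen, by leaving out the library with short reads and a level near CTRL. In this setting the CTRL replicates still mix short and long reads.

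KCl gave the opposite picture for the whole table, where 25.1% of 378 tested ends were called, 20.9% lower and 4.23% higher. Of 44 isolated ends tested, 7 were called, 5 lower and 2 higher, or 3 and 3 under TMM scaling. The median fold change was 0.16 at isolated ends and -0.39 over all tested, and under TMM scaling 0.64 and 0.09. Isolated ends were thus called lower in 11.4% of cases. In 5 of the 44 every KCl library lay above every CTRL library and in 5 below, against 7.67% and 28% of all tested.

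MYC, the oncogenic transcription factor, fell most. Its end held 63.8, 53.6 and 38.7 RPM in CTRL and 7.31, 0 and 0 in KCl 45min, which are 3 reads in all. The pooled level was 31.7-fold higher in CTRL (95% counting interval 10.3 to 158), with an adjusted p of 3.58e-06. NCL, the nucleolar protein nucleolin, held 36.0, 24.4 and 11.6 RPM in CTRL and 4.87, 0 and 2.84 with KCl, a fall of 3.03 ± 0.73 (SE) on the log2 scale (adjusted p = 0.00124). Neither MYC nor NCL had more than 3 reads in any KCl library, so both passed the filter through CTRL. Their direction is thus tied to which ends could be tested. Against a floor of 3 reads per library, MYC was at least 7.92-fold and NCL at least 3.65-fold lower than CTRL.

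HMGN2 fell from 41.6, 97.5 and 50.3 RPM to 9.74, 38.2 and 9.47 (3.75-fold, adjusted p = 0.00693). TRA2B, a splicing factor, fell from 25, 19.5 and 30.9 RPM to 4.87, 3.19 and 7.58 (4.03-fold, adjusted p = 0.0144). No KCl library of MYC, NCL, HMGN2 or TRA2B reached the lowest CTRL library. C8orf33 fell 3.96-fold (adjusted p = 0.0264) with overlapping groups and with its counted region 10655 nt short of the end of its gene.

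NABP1, a single-stranded DNA binding protein, and BTG1, an antiproliferative gene, rose. NABP1 held 13.9, 2.44 and 11.6 RPM in CTRL and 14.6, 44.6 and 43.6 with KCl (3.85-fold, adjusted p = 0.0138), but its transcript stops 44435 nt short of its gene's end. BTG1 held 0, 14.6 and 0 RPM and then 12.2, 31.9 and 23.7 (3.82-fold, adjusted p = 0.0442), and another gene on the same strand lies over its start.

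Single libraries weigh heavily here: the 7 calls became 3, 2 or 4 without CTRL replicate 1, 2 or 3, and 4 or 1 without KCl 45min replicate 2 or 3. MYC passed in every alternative run, with adjusted p between 5.08e-09 and 0.00407. NCL had an adjusted p in 9 alternatives, TRA2B in 10 and C8orf33 in 11, against 14 for MYC, so some runs cannot show whether their calls hold. HMGN2 was lost without CTRL replicate 2 or KCl 45min replicate 3, NABP1 without CTRL replicate 2 or KCl 45min replicate 2, BTG1 without CTRL replicate 1 or 3 or KCl 45min replicate 2, and C8orf33 without KCl 45min replicate 2 or 3. NABP1, BTG1 and C8orf33 were also lost with read length class as a block and without a filter, TRA2B and C8orf33 under TMM scaling, and HMGN2, TRA2B and C8orf33 with readthrough reads as the library size. TRA2B was lost without a filter too. With DESeq2, MYC and NABP1 alone passed (adjusted p = 0.000834 and 0.0271), and NCL missed the threshold (0.0579).

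**Figure D4:**
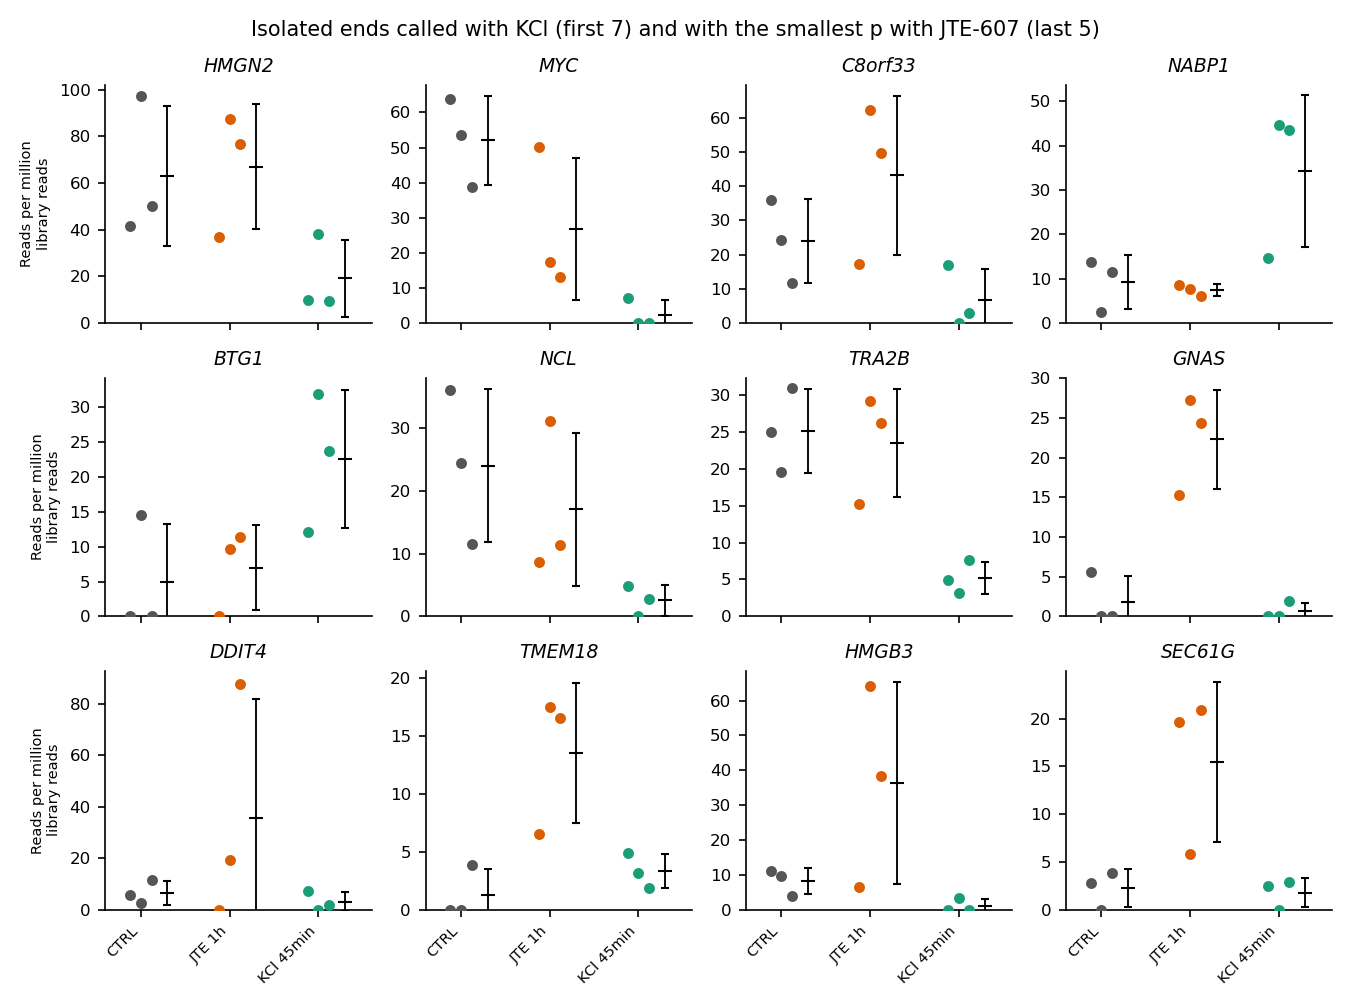
Reads per 1000000 library reads in CTRL, JTE 1h and KCl 45min at the 7 isolated ends called with KCl and the 5 with the smallest p with JTE-607. Points are libraries and bars the mean and SD of 3 (clipped at 0); MYC, NCL, HMGN2 and TRA2B sit lower in every KCl library than in any CTRL library.

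With imatinib for 1 h, 4 of 177 isolated ends (2.26%) were called, 3 lower and 1 higher. Over all 988 tested, 1.52% were called (0.202% higher and 1.32% lower). In 27 isolated ends every IM 1h library lay above every CTRLim library and in 9 below, against 13% and 5.47% of all tested. TMSB4X, the actin-sequestering thymosin, held 4.35, 44.4 and 38.6 RPM in CTRLim and 11.9, 5.23 and 9.97 in IM 1h (3.65-fold lower, adjusted p = 0.000328). Its first CTRLim library lay below all of IM 1h, and without CTRLim replicate 2 the adjusted p was 0.119. BHLHE40, a stress-responsive transcription repressor, held 39.2, 48.1 and 38.6 RPM and then 10.4, 22.7 and 19.9 (2.41-fold lower, adjusted p = 0.0111).

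DDIT4 fell from 39.2, 35.2 and 63.0 RPM to 10.4, 29.7 and 22.4 (2.26-fold, adjusted p = 0.0130). CITED2, a partner of the coactivators CBP and p300, rose from 0, 3.70 and 4.06 RPM to 14.9, 14 and 18.7 (4.81-fold, adjusted p = 0.0267). No CTRLim library held more than 2 of its reads, so it passed the filter of 30 reads through IM 1h. Against a floor of 3 reads per library, CITED2 was at least 1.92-fold higher than CTRLim. The groups of BHLHE40, DDIT4 and CITED2 did not overlap. NOP58, a core protein of box C/D snoRNPs, held 8.70, 1.85 and 6.09 RPM and then 13.4, 17.4 and 18.7, which did not pass (adjusted p = 0.128).

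All 4 calls are sensitive at this depth. DESeq2 called 0 of the 177, with NA for CITED2, and CITED2 passed in 0 of its 9 alternatives that gave an adjusted p. DDIT4 was lost without CTRLim replicate 3 or IM 1h replicate 1, and BHLHE40 without CTRLim replicate 2 or IM 1h replicate 1. Without CTRLim replicate 2 or IM 1h replicate 1 a single end was called, and without CTRLim replicate 3 there were 2. The median fold change was 0.17 at isolated ends and 0.19 over all tested, and under TMM scaling -0.01 and 0.01.

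After 18 h, 43 of 285 isolated ends were called, 23 higher and 20 lower. Over all 1386 tested, 14.1% were called, 5.19% higher and 8.95% lower, so that isolated ends were called higher in 8.07% of cases and lower in 7.02%. The median fold change was 0.19 at isolated ends and -0.01 over all tested. Of the 23 isolated ends called higher, 16 had at most 3 reads in every CTRLim library. Of the 20 called lower, 0 had so few in every IM 18h library. The filter sums reads over both groups and IM 18h was sequenced more deeply, so ends high in IM 18h passed it more easily. All 4 isolated ends called at 1 h were also called at 18 h, which shares the CTRLim libraries. In 54 of the 285 every IM 18h library lay above every CTRLim library and in 38 below, against 13.3% and 18.4% of all tested.

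Of the 10 isolated ends on the list of erythroid and haem genes, 7 were tested. Of these, 6 were called higher and 0 lower, against 5.19% and 8.95% of all tested, with a median of 3.61 on the log2 scale, or 2.97 with AHSP at the bound given below. Fitted values of ends with so few control reads depend on the prior count. The filter of 30 reads over both groups was passed through IM 18h by AHSP (44 reads, 0 in CTRLim) and GYPB (48 and 1). The same holds for BPGM (41 and 1) and FECH (41 and 3). The direction of these calls is thus tied to which ends could be tested, and MYB, whose mean was lower at 18 h, could not be.

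GYPE, of a family of red cell surface proteins, held 17.4, 1.85 and 2.03 RPM in CTRLim and 53.2, 36.8 and 29.6 in IM 18h (7.86-fold, adjusted p = 5.87e-05), and GYPB 4.35, 0 and 0 against 13.8, 9.39 and 17.0, a pooled ratio of 17.0 (95% counting interval 2.91 to 685) from 1 CTRLim read (adjusted p = 0.00159). Since they are paralogs, each is uncertain on its own. AHSP, the chaperone of alpha globin, had no read in CTRLim, 1 read in IM 1h, and 11, 15 and 18 reads in IM 18h. Against a floor of 3 reads per library, it was at least 1.49-fold higher than CTRLim (adjusted p = 0.000415).

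BPGM, which makes bisphosphoglycerate in red cells, rose from 1 read in CTRLim to 41 in IM 18h, a pooled ratio of 14.5 (2.46 to 587, adjusted p = 0.00486). FECH, the ferrochelatase that inserts iron into haem, held 8.70, 0 and 2.03 RPM and then 14.9, 11.7 and 8.89, a ratio of 4.84 (1.54 to 24.4, adjusted p = 0.0325). LMO2, an erythroid transcription bridge, held 13.6 ± 6.47 RPM in CTRLim and 15 ± 1.78 in IM 18h, with overlapping groups (adjusted p = 0.846). MYB, which holds progenitors undifferentiated, held 10.8 ± 1.98 and 3.23 ± 1.16 RPM (SD, n = 3) but had too few reads to be tested, as had TFRC and GYPC.

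Other ends rose too. CITED2 went on to 28.7, 29 and 24.5 RPM (8.30-fold over CTRLim, adjusted p = 9.30e-05). ELL2, an elongation factor subunit, held 0, 1.85 and 4.06 RPM in CTRLim and 27.7, 18.0 and 17.8 in IM 18h (pooled ratio 8.61, 2.83 to 42.7, adjusted p = 0.000469). CD58, an adhesion ligand of T cells, held 4.35, 1.85 and 0 and then 11.7, 18.8 and 20.01 (ratio 11.0, 2.91 to 92.6, adjusted p = 0.000708). ELL2 (73 reads, 3 in CTRLim) and CD58 (62 and 2) also passed the filter through IM 18h. So did CITED2, with at most 2 reads in any CTRLim library. The direction of these calls is likewise tied to which ends could be tested.

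RNF182, a ubiquitin ligase, held 4.35, 7.41 and 8.13 RPM, then 22.3, 12.2 and 21.2 at 1 h and 36.2, 26.6 and 25.9 at 18 h. It was 4.05-fold over CTRLim at 18 h (adjusted p = 0.00157). CDKN2C, an inhibitor of CDK4 and CDK6 and the only end called among 5 tested of the cell cycle list, rose 2.47-fold (adjusted p = 0.0449).

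Of the 20 ends that fell, ANKRD62, an ankyrin repeat gene, held 39.2, 31.5 and 26.4 RPM in CTRLim, 26.7, 20.9 and 33.6 in IM 1h and 2.13, 4.70 and 0.741 in IM 18h (11.7-fold lower, adjusted p = 6.16e-07), the smallest p of them. DDIT4 fell further, to 2.13, 7.05 and 9.63 RPM (6.87-fold below CTRLim, adjusted p = 1.76e-06). VIM, the intermediate filament vimentin, fell from 21.8, 37.0 and 34.5 RPM to 5.32, 6.26 and 2.96 (6.71-fold, adjusted p = 4.62e-06).

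CXCL2, a chemokine, fell from 26.1, 22.2 and 22.3 RPM to 4.26, 5.48 and 3.70 (adjusted p = 0.000212), and S100A6, a calcium-binding protein, from 13.1, 16.7 and 22.3 to 0, 3.13 and 5.19 (5.69-fold, adjusted p = 0.00138). TMSB4X stayed near its 1 h level, at 8.51, 8.61 and 8.89 RPM (3.82-fold below CTRLim, adjusted p = 0.000654). HSPA8 fell 2.02-fold (adjusted p = 0.00145).

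MYC held 82.7, 57.4 and 60.9 RPM in CTRLim, 43.1, 36.6 and 43.6 in IM 1h and 25.5, 26.6 and 29.6 in IM 18h. It fell 2.35-fold by 18 h (adjusted p = 0.00147), while the step at 1 h did not pass (adjusted p = 0.23) although no libraries overlapped. DUSP1, a MAP kinase phosphatase of the same list, held 7.36 ± 4.22 and 18.8 ± 4.31 RPM (adjusted p = 0.0728). Of the 4 tested ends of this BCR-ABL, STAT5 and ERK list, MYC alone was called at 18 h. JUN held 8.75 ± 1.38 and 2.57 ± 0.880 RPM and KLF6 12.7 ± 0.475 and 5.04 ± 1.79 (adjusted p = 0.0957), with JUN, whose transcript stops 3946 nt short of its gene's end, too sparse for the test.

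The calls at 18 h fell to 27 without CTRLim replicate 2 or 3, and the 100 kb window, which holds 1274 isolated ends, kept 23. Of the 8 higher and 8 lower ends with the smallest adjusted p, HSPA8 alone was lost in an alternative that gave one. This was with all 18 libraries in 1 fit (edgeR adjusted p = 0.0571). AHSP and S100A6 had an adjusted p in 10 alternatives and GYPB in 11, against 13 for HSPA8, so the other runs cannot show whether their calls hold. DESeq2 gave NA for AHSP and GYPB.

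**Figure D5:**
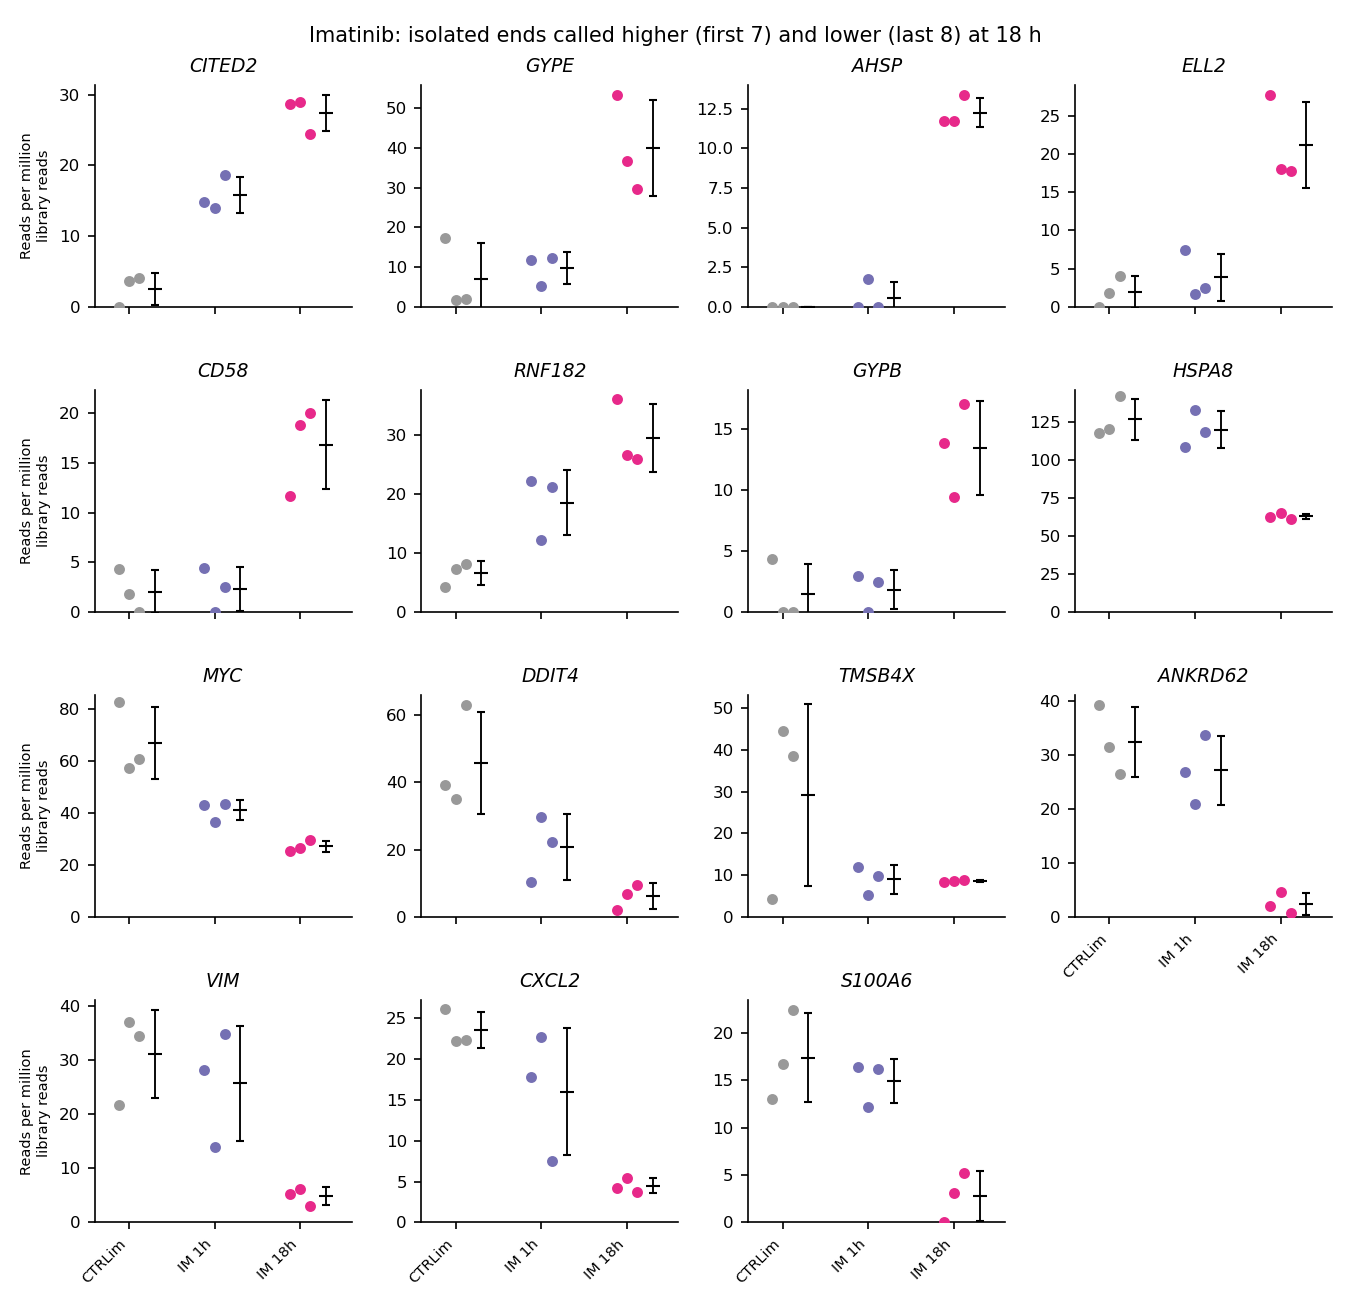
Reads per 1000000 library reads in CTRLim, IM 1h and IM 18h at 7 isolated ends called higher (first 7 panels) and 8 called lower (last 8) with the smallest adjusted p at 18 h. Points are libraries and bars the mean and SD of 3 (clipped at 0); AHSP has no read in CTRLim, and TMSB4X spreads from 4.35 to 44.4 there.

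Between the imatinib times, 55 of 360 isolated ends were called, 22 higher and 33 lower at 18 h, with 18.3% called over all 1720 tested (4.19% higher and 14.1% lower). Of the 22 called higher, 11 had at most 3 reads in every IM 1h library. Under TMM scaling the split was 33 higher and 14 lower, and the median of isolated ends moved from -0.14 to 0.15. ARRDC4, an arrestin domain protein, held 2.97, 0 and 2.49 RPM at 1 h and 31.9, 29.7 and 15.6 at 18 h (12.2-fold, adjusted p = 7.63e-08). It is among the 11 with at most 3 reads in every IM 1h library and passed the filter through IM 18h. Its fitted fold change thus depends on the prior count, and its direction is tied to which ends could be tested. CTRLim held 17.4, 18.5 and 4.06 RPM, between the times.

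KLF10, a TGF-beta induced repressor, rose 5.10-fold between the times (adjusted p = 0.000175) and MAGEC2, a cancer testis antigen with a close paralog, 4.51-fold (adjusted p = 5.03e-05). Their CTRLim means of 6.47 and 8.05 RPM also lay between those at 1 h (3.65 and 5.13) and 18 h (18.2 and 24.6). GYPE, AHSP, CD58 and ELL2 rose again here, GYPE by 1.93 ± 0.34 on the log2 scale (SE, adjusted p = 4.95e-06). BAMBI, a decoy receptor for TGF-beta ligands, fell 6.47-fold, from 10.4, 22.7 and 13.7 RPM to 1.06, 3.91 and 1.48 (adjusted p = 4.80e-05).

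MECOM, a transcription factor of blood stem cells, fell from 8.91, 19.2 and 17.4 RPM to 4.26, 2.35 and 2.223 (5.18-fold, adjusted p = 0.000175). HMGB3 fell 3.51-fold (adjusted p = 0.000673) and BOD1, a regulator of chromosome biorientation, 3.15-fold (adjusted p = 0.000143). The CTRLim means of MECOM, HMGB3 and BOD1 were 6.78, 7.77 and 29.8 RPM. At 1 h they were 15.2, 19.3 and 31.9, and at 18 h 2.94, 5.45 and 10.6. ANKRD62, VIM, HSPA8 and S100A6 were lower at 18 h than at 1 h as well, ANKRD62 by 10.5-fold (adjusted p = 1.25e-09). In 46 of the 360 every IM 18h library lay above every IM 1h library and in 68 below, against 8.49% and 26.3% of all tested. Without IM 1h replicate 2 or 3 the 55 calls became 34 or 30. DESeq2 did not call HSPA8, HMGB3, S100A6, BOD1 or MECOM here (adjusted p = 0.18, 0.148, 0.0991, 0.102 and 0.0699).

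Of the 5 tested stress genes at 18 h, 2 were called lower than CTRLim, HSPA8 and DDIT4, with BTG1, DNAJB9 and ASNS not called (adjusted p = 0.211, 0.78 and 0.685). Of the 4 tested transcription factors, BHLHE40 alone was called, lower (2.66-fold, adjusted p = 0.00281), and KLF3, an erythroid repressor, held 19.1 ± 8.87 and 30.4 ± 14.5 RPM. IRF2BP2, SP3 and LMO4 held means of 19.0, 13.4 and 4.89 RPM in IM 18h and 12.6, 10.4 and 2.07 in CTRLim. Of the genes of 3′ end processing, 2 were tested at 1 h (CPSF6 and PAPOLA) and 3 in each of the other imatinib comparisons, with 0 called by edgeR. CPSF6 held 29.1 ± 8.86 RPM in CTRLim and 17.2 ± 3.88 in IM 18h (adjusted p = 0.267), PAPOLA 12.7 ± 0.475 and 9.26 ± 1.30, and INTS7 1.91 ± 1.85 and 7.79 ± 5.06. BCL2L11, MAD2L1 and TTK of the cell cycle and death list held 8.22 ± 1.61, 9.06 ± 3.35 and 6.58 ± 1.44 RPM in IM 18h.

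Ends just inside the limit (next gene at 50 to 60 kb, 277 ends) had a median fold change of 0.98 with JTE-607 over 22 tested, and those just outside it (40 to 50 kb, 361 ends) 0.66 over 21. At 18 h of imatinib the medians were 0.24 over 30 tested inside and 0.23 over 32 outside. Inside the limit, the medians with JTE-607 were 0.83 for a next gene within 100 kb, 0.62 between 100 and 250 kb and 0.58 beyond 250 kb. These are descriptions without a test.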

How the data were processed

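Per the methods and labels, adapters were trimmed (cutadapt) and reads aligned to GRCh38 (minimap2). The authors collapsed duplicates by molecular identifier, dropped polyadenylated reads and splicing intermediates, and deposited counts of readthrough reads per transcript, not normalized. A read was counted where its 3′ end lay more than 100 nt past the last exon. Of 13051 transcripts, 12704 (97.3%) were matched by identifier to GENCODE 44 on GRCh38, which gave positions and neighbours.

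Library size was the number of reads left in each library in the study's supplement, and levels are counts per 1000000 of these. Reads of all transcripts were fitted with edgeR 4.0.16 in R 4.3.3 (DESeq2 1.42.0 as alternative, both tested on simulated data), with at least 30 reads over 6 libraries. Named are the 12 isolated ends with the most reads, up to 8 called in each direction, the smallest p up to 5 ends where fewer were called, and up to 5 of each gene list by reads. Members and lists were chosen with earlier results of these data known. One end that the rule names is not reported here. Replicates are biological per the labels. The main fits did not use replicate numbers as pairs. Alternatives changed scaling, filter, tool, libraries and window.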

Additional observations from a re-analysis of the deposited data

Results flagged for a closer look

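The test of IM 18h against IM 1h, which is the difference of both effects because they share CTRLim, called 55 of 360 isolated ends (15.3%). Over all tested transcripts 18.3% were called, so the share is not higher at isolated ends. The 55 split into 22 higher and 33 lower, or 33 and 14 under TMM scaling. Of the 55, 28 (50.9%) had IM 1h and IM 18h means on opposite sides of the CTRLim mean, 20 above it at 1 h and below it at 18 h, and 8 the reverse. Over all 315 transcripts called between the times, 179 (56.8%) had means on opposite sides. These ends were chosen for a difference between the times, and some sides differ little: MACC1 held 2.07 RPM in CTRLim and 1.99 in IM 1h. In 3 of the 28 the libraries of each time lay wholly on their own side of CTRLim.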

How the results depend on the processing

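Depth sets the main limit: the median isolated end has 12 reads over 18 libraries, and few reach the minimum for a test. For JTE-607, 4 isolated ends were called with all 18 libraries in 1 fit, and leaving out 1 library gave 0 to 10. For KCl the 7 calls became 2 with DESeq2, 34 with at least 10 reads, 15 with a 20 kb window, 4 with 100 kb, 3 with no gene of any type in the window, 4 with read length class as a block (added after seeing the data), and 1 to 5 without 1 library. For IM 1h the 4 calls became 0 with DESeq2 and with all 18 libraries, 1 without a filter, 7 at 20 kb, 1 at 100 kb and 1 to 3 without 1 library. For IM 18h the 43 calls became 22 with DESeq2, 23 at 100 kb, 11 with no gene of any type, and 27 to 44 without 1 library. Between the times the 55 calls became 17 with DESeq2, 27 with all 18 libraries, 34 at 100 kb, 10 with no gene of any type, and 30 to 51 without 1 library. Narrower sets hold fewer ends; the cause of the other changes was not tested.

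Replicate numbers did not deviate together in every pair of any comparison. With JTE-607 the correlations for replicates 1, 2 and 3 were 0.252, -0.0113 and 0.238, and with KCl 0.301, 0.0367 and 0.225. Replicates 1 and 3 share their read length class with the CTRL library of that number, and replicate 2 does not. Whether the number or the read length class lies behind this was not tested. With a replicate block, 1 isolated end was called for JTE-607 and 1 for IM 1h, and 7, 44 and 50 for KCl, IM 18h and between the times.

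The difference in reads at isolated ends, in percentage points of library reads, moved for JTE-607 from 0.209 to 0.0471 with no gene of any type in the window and reversed to -0.00252 in the libraries of short reads. For KCl it moved from -0.0258 to -0.0946 at 20 kb, and for IM 1h from 0.0798 to 0.00758 with no gene of any type. Between the imatinib times it moved from -0.0579 to -0.0186 with mapped reads as the total, -0.107 at 20 kb, -0.0244 at 100 kb and -0.0189 with no gene of any type. Leaving out 1 library left these between 0.135 and 0.334 (JTE-607), -0.0609 and 0.0130 (KCl), 0.0608 and 0.113 (IM 1h), 0.000437 and 0.0551 (IM 18h), and -0.0794 and -0.0455 (between the times). Of 609 values of named ends under alternatives, 0 changed direction, 57 lost and 8 gained a call, with no adjusted p from DESeq2 in 4 more cases.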
